A study of Homo sapiens with 6 samples.

Results

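The human miRNAs hsa-miR-21-5p, hsa-miR-205-5p, hsa-miR-203a-3p and hsa-miR-31-5p, chosen by name as miRNAs known from squamous epithelium and oral carcinoma, were followed in small extracellular vesicles (EVs) of oral squamous cell carcinoma spheroids. All 4 had a row of their own among the 471 rows of the miRNA count table, and all 4 were among the 105 miRNAs that passed the filter on low counts. The vesicles came from day 14 culture medium of spheroids of Cal27, an established human tongue carcinoma line, and were isolated by insulator-based dielectrophoresis. Spheroids were grown on Matrigel at 3 mg/mL (soft ECM, EVsoft) or at 12 mg/mL (stiff ECM, EVstiff), with 3 biological replicates in each group, so that the question was whether the matrix went with a change in vesicle miRNA. A lower level in bulk vesicles can mean fewer vesicles that carry a miRNA or less of it in each, which cannot be told apart here. All cells were wild-type Cal27 in serum depleted of vesicles. The gels differed in Matrigel concentration as well as in stiffness, and these cannot be told apart.

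A miRNA is a short RNA that guides an Argonaute protein to messenger RNAs, mostly through its seed, bases 2 to 8 from the 5′ end, and so lowers their translation and stability. In stratified squamous epithelium, miR-205 and miR-203 are textbook epithelial miRNAs. miR-205 represses ZEB1 and ZEB2, transcription factors of the mesenchymal state, and miR-203 restrains the stem cell factor p63 as keratinocytes leave the basal layer. miR-21 and miR-31 are better known from proliferating or malignant epithelium: miR-21 represses the tumour suppressor PDCD4, and miR-31 represses the hypoxia regulator FIH.

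The mature sequences are shown because the seed sets which messages a miRNA can pair with. They are from RefSeq on GRCh38.p14, 5′ to 3′, with the seed in capitals.
miR-21-5p: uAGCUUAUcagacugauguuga
miR-205-5p: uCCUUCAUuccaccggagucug
miR-203a-3p: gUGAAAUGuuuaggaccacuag
miR-31-5p: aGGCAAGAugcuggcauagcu
No seed was shared among the 4. Of the other human mature miRNAs in the RefSeq table, only miR-590-5p carried the seed of a member, that of miR-21-5p, and it had no row in the count table. The mature miRNAs held between 8 and 12 G or C bases, the fewest in miR-21-5p and the most in miR-205-5p.

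The 4 come from separate chromosomes. miR-21-5p lies on the plus strand at chr17:59841273-59841294, in a hairpin that sits within an exon of all 10 transcripts of the protein-coding gene VMP1 that span it in GENCODE 44, and within an annotated UTR in 8 of them. miR-205-5p lies on the plus strand at chr1:209432166-209432187. Its hairpin overlaps an exon of the lncRNA MIR205HG in part in 12 of 15 spanning transcripts and lies in an intron of the other 3. miR-31-5p lies on the minus strand at chr9:21512158-21512178, in an intron of all 21 spanning transcripts of the lncRNA MIR31HG. miR-203a-3p lies on the plus strand at chr14:104117469-104117490, outside any host gene on its strand, with the hairpin MIR203B on the opposite strand. The row of miR-203b-3p held 1 read in all 6 libraries together.

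The libraries held between 28688 and 66345 miRNA reads, and every EVsoft library held more than every EVstiff library. Levels are given as reads, as the share of a library's miRNA reads, and as CPM, the reads scaled to a fixed library total, after TMM factors that set the bulk of miRNAs at equal level between libraries. Of the 105 tested miRNAs, 64.8% had fewer raw reads in every EVstiff library than in every EVsoft library, so shares and CPM, not reads, are the measures compared. A count of 0 allowed up to 3 reads, or between 44.8 and 108 CPM, and all members lay above that limit in every library. Intervals and limits cover counting error only. Most markers of other cells were scarce. The row of miR-143-3p, a stromal miRNA, held at most 5 reads in a library, that of miR-126-3p, an endothelial miRNA, at most 10, and that of miR-451a, of red blood cells, at most 8. As whole lists, 4 of 5 stromal miRNAs had a row, with between 0 and 5 reads a library in sum, and 5 of 7 blood cell miRNAs had one, with between 11 and 63. The 2 endothelial miRNAs summed to between 2 and 10 reads, 2 of 3 muscle miRNAs to between 10 and 46, and 1 of 2 neuronal miRNAs to between 0 and 4. Of the blood cell miRNAs, miR-486-5p had 18, 55 and 30 reads in EVsoft and 8, 47 and 10 in EVstiff. The muscle miRNA miR-1-3p had 45, 12 and 9 in EVsoft and 15, 13 and 15 in EVstiff. Both passed the filter on low counts, and in some libraries had more reads than miR-31-5p. The liver miRNA miR-122-5p was higher, at between 0.279% and 0.449% of reads in EVsoft and between 0.616% and 0.729% in EVstiff. The part of these markers in the results below was not tested.

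Together the 4 miRNAs made up 13.3% ± 1.08 (SD, n = 3) of the miRNA reads in EVsoft and 10.4% ± 0.281 (SD, n = 3) in EVstiff, and nearly all of that was miR-21-5p and miR-205-5p. In the order of mean CPM over the 6 libraries, miR-21-5p was 2nd, miR-205-5p 9th, miR-203a-3p 47th and miR-31-5p 89th of the 105. The place differed between the groups for 3 of them. By mean share among all 471 rows, miR-21-5p was 2nd in EVsoft and 4th in EVstiff, miR-203a-3p 70th and 43rd, and miR-31-5p 77th and 95th, while miR-205-5p was 10th in both. miR-21-5p lay below let-7b-5p in all 6 libraries. It lay above miR-320a, the next in order, in the 3 EVsoft libraries and below it in the 3 EVstiff libraries. miR-203a-3p lay below its neighbours miR-7-5p and miR-193a-5p in each EVsoft library and above both in each EVstiff library, and miR-205-5p stood likewise to let-7i-5p. Its other neighbour, miR-24-3p, was higher in 1 EVsoft library and lower in the others. In EVstiff, miR-24-3p was higher in replicates 1 and 2 and equal to miR-205-5p in replicate 3, at 923 reads each. Beside miR-31-5p, miR-361-3p was lower in all EVsoft and higher in all EVstiff libraries, and miR-22-5p was higher in 1 library of each group.

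**Figure D1:**
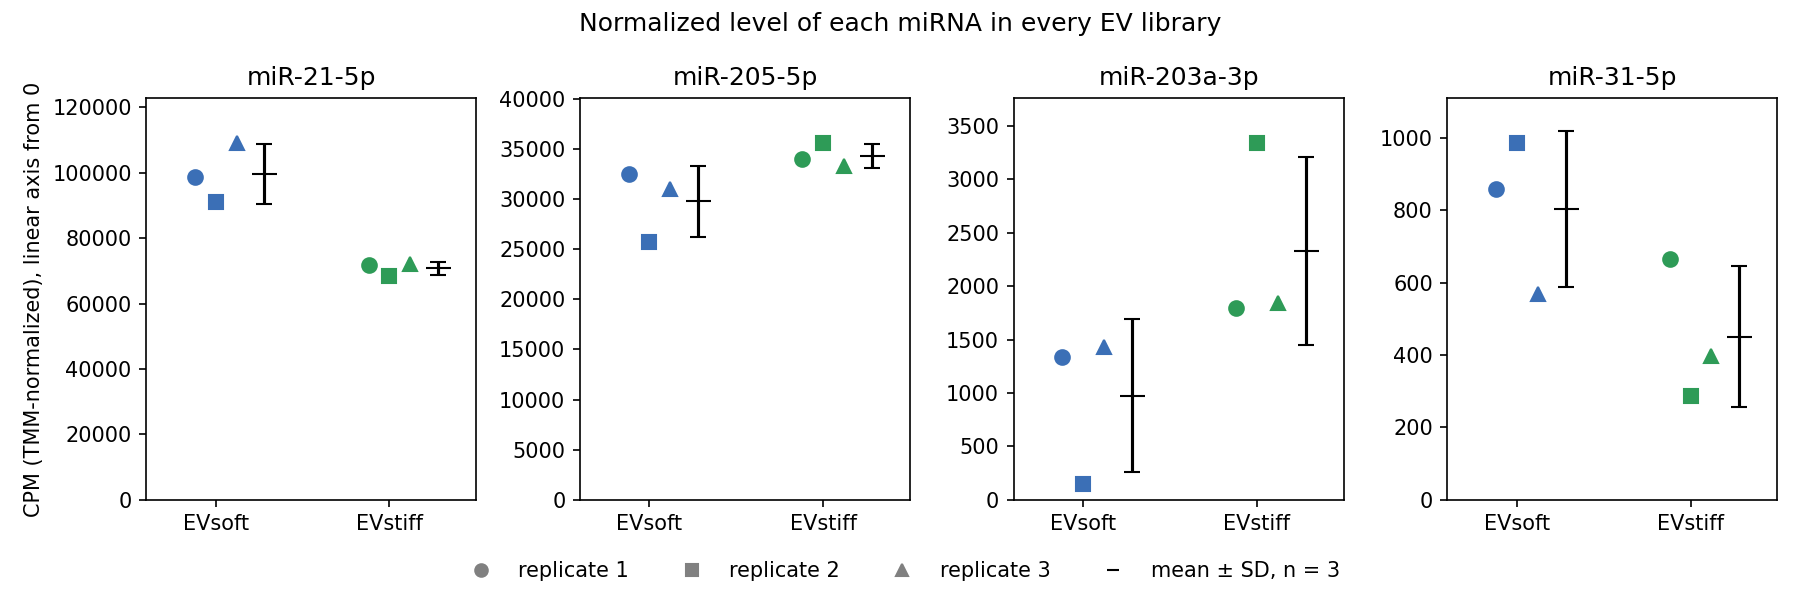
TMM-normalized CPM (linear axis from 0, one scale per panel) of each miRNA in the 3 EVsoft and 3 EVstiff libraries, with the mean and SD beside the points. The EVstiff points lie below all EVsoft points for miR-21-5p and above them for miR-205-5p and miR-203a-3p, while those of miR-31-5p overlap.

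The level of miR-21-5p fell in EVstiff. It had 4486, 3693 and 7311 reads in EVsoft replicates 1 to 3 and 2155, 1905 and 2001 in EVstiff replicates 1 to 3. These were 9.78%, 9.42% and 11.0% of the miRNA reads in EVsoft and 7.02%, 6.64% and 6.73% in EVstiff. The lowest EVsoft library thus lay well above the highest EVstiff library, and the 95% Wilson interval of that EVsoft share (9.13% to 9.71%) did not reach that of the EVstiff share (6.74% to 7.31%). The mean share was 10.1% ± 0.839 (SD, n = 3) in EVsoft and 6.80% ± 0.199 (SD, n = 3) in EVstiff, or 0.675 times the EVsoft share. By exact permutation, two-sided, p was 0.1, which is the lowest that 3 samples against 3 can give, and 0.2 after Benjamini-Hochberg adjustment over the 4 miRNAs. Shares lay apart in this direction for 30.5% of all tested miRNAs, and CPM for 24.8%. In CPM the means were 99584 ± 9091 (SD, n = 3) and 70794 ± 2022 (SD, n = 3). The log2 fold change of EVstiff over EVsoft was -0.49 (standard error 0.09, 95% interval -0.70 to -0.29, adjusted p = 0.00395 by edgeR's quasi-likelihood test). The adjusted p passed the threshold of 0.05, as it did for 23.8% of all tested miRNAs in either direction and for 11.4% downwards. The fold change missed the study's threshold of 0.58. Both thresholds together were passed by 18.1% of the tested miRNAs, 10.5% upwards and 7.62% downwards.

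miR-205-5p did not differ by the test. Its reads numbered 1479, 1045 and 2078 in EVsoft and 1021, 991 and 923 in EVstiff, replicates 1 to 3 in each. As shares these were 3.23%, 2.67% and 3.13% in EVsoft and 3.33%, 3.45% and 3.11% in EVstiff. The shares overlapped between the groups, since EVstiff replicate 3 lay below EVsoft replicates 1 and 3, and EVsoft replicate 2 was lowest of all 6. Mean shares were 3.01% ± 0.300 (SD, n = 3) and 3.30% ± 0.176 (SD, n = 3), with an exact two-sided permutation p of 0.3, and of 0.3 after adjustment over the 4. In CPM the groups lay apart, with 32498, 25762 and 31021 in EVsoft and 34007, 35618 and 33274 in EVstiff. Over all tested miRNAs the CPM did not overlap for 47.6%, and 22.9% were higher in each EVstiff library. The log2 fold change was 0.20 (standard error 0.10, 95% interval -0.03 to 0.44, adjusted p = 0.168), so a rise beyond 0.44 or a fall beyond 0.03 lies outside the interval. Without EVsoft replicate 2 it was 0.11 (adjusted p = 0.413). The direction depends on the scaling: in raw reads every EVstiff library was below every EVsoft library, and with the same library size assumed for all it was -0.65 (adjusted p = 0.0432), while the median of all tested miRNAs was then -0.89. Relative to that median it was higher by 0.24.

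miR-203a-3p, the rarer of the pair known from keratinocyte differentiation, had 61, 6 and 96 reads in EVsoft and 54, 93 and 51 in EVstiff. Its shares were 0.133%, 0.0153% and 0.145% in EVsoft and 0.176%, 0.324% and 0.172% in EVstiff. EVsoft replicate 2 stood apart from its group, with a 95% Wilson interval of 0.00701% to 0.0334% against 0.104% to 0.171% in replicate 1 and 0.119% to 0.177% in replicate 3. All 3 EVstiff shares lay above the 3 EVsoft shares, with EVstiff replicate 2 highest. Mean shares were 0.0977% ± 0.0716 (SD, n = 3) and 0.224% ± 0.0868 (SD, n = 3), with an exact two-sided permutation p of 0.1 (0.2 adjusted over the 4). Shares lay apart for 49.5% of all tested miRNAs, and for 19% with EVstiff higher. The highest CPM in EVsoft was 9.69 times the lowest, the widest range within EVsoft of the 105 miRNAs. The means were 974 ± 717 CPM (SD, n = 3) in EVsoft and 2327 ± 880.1 CPM (SD, n = 3) in EVstiff. The log2 fold change of 1.21 did not pass the test (standard error 0.55, 95% interval -0.01 to 2.44, adjusted p = 0.127 by edgeR). Single libraries decided this call. Without EVsoft replicate 2 the log2 fold change was smaller, at 0.74, and the adjusted p was 0.0488, and without EVsoft replicate 1 they were 1.45 and 0.00441. The remaining 4 fits that each left out one library gave values between 0.86 and 1.61 and did not pass.

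miR-31-5p was the least abundant member. It had 39, 40 and 38 reads in EVsoft and 20, 8 and 11 in EVstiff, or 0.0850%, 0.102% and 0.0573% of reads in EVsoft and 0.0652%, 0.0279% and 0.0370% in EVstiff. The shares overlapped, since EVstiff replicate 1 lay above EVsoft replicate 3, and the Wilson intervals of these libraries (0.0422% to 0.101% and 0.0417% to 0.0786%) covered each other's values. Mean shares were 0.0814% ± 0.0226 (SD, n = 3) and 0.0434% ± 0.0194 (SD, n = 3), with an exact two-sided permutation p of 0.2 (0.267 adjusted over the 4). The means were 803 ± 214 CPM (SD, n = 3) in EVsoft and 450.1 ± 195 CPM (SD, n = 3) in EVstiff. The log2 fold change was -0.80 (standard error 0.38, 95% interval -1.66 to 0.05, adjusted p = 0.141 by edgeR), which missed the threshold at this depth. It was -1.23 without EVstiff replicate 1 (adjusted p = 0.076), and -0.55 without EVstiff replicate 2 (adjusted p = 0.331).

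**Figure D2:**
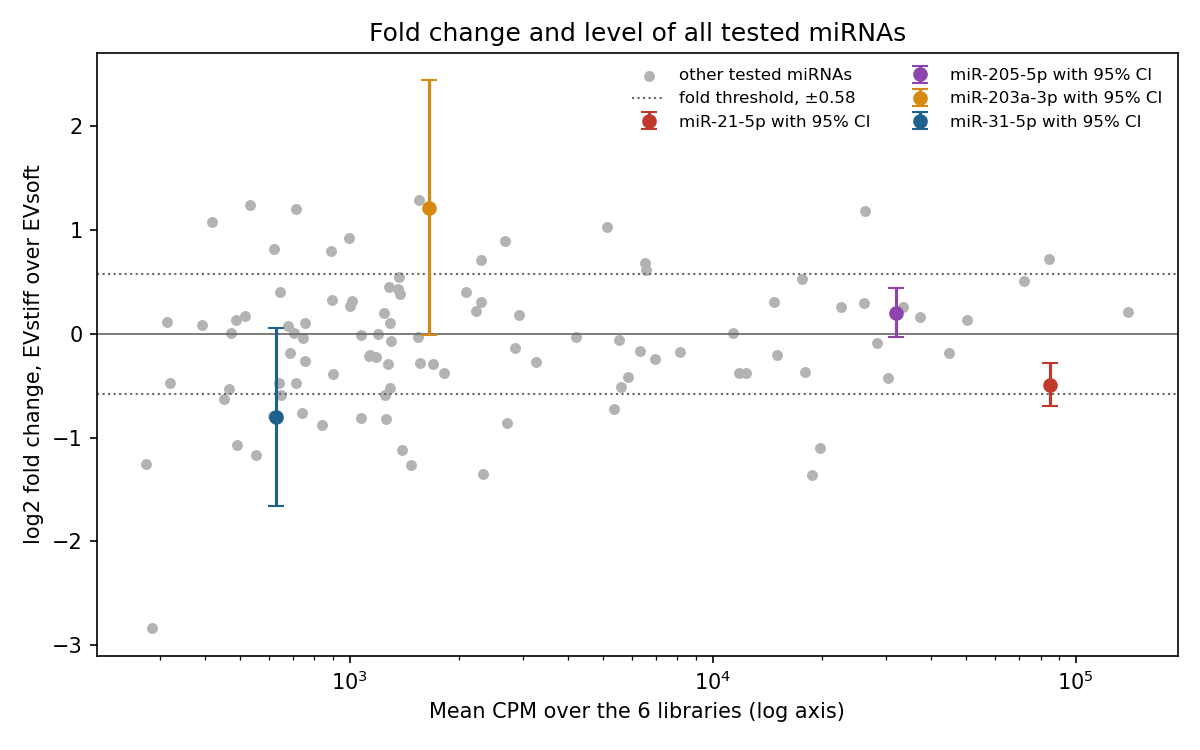
log2 fold change of EVstiff over EVsoft against the mean CPM (log axis) of the 105 tested miRNAs, with 95% intervals for the 4 members and dotted lines at the fold threshold of 0.58. The interval of miR-21-5p lies wholly below 0, and those of miR-205-5p, miR-203a-3p and miR-31-5p cross 0.

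Thus 1 of the 4, miR-21-5p, passed the adjusted p threshold in edgeR, as did 23.8% of all tested miRNAs. With the fold threshold added 0 of the 4 passed, against 18.1% of all tested. Counts this small do not set the members apart from all tested miRNAs. Before adjustment the count at 0.05 was also 1, where 40% of all tested miRNAs passed, and the edgeR fit across all miRNAs gave an unadjusted p of 0.0519 for miR-203a-3p, 0.0633 for miR-31-5p and 0.0793 for miR-205-5p. With DESeq2 the counts were 1 and 0 too, where 25 and 19 of the 105 tested miRNAs passed. The adjusted p by DESeq2 was 0.000167 for miR-21-5p and between 0.0955 and 0.264 for the others. The members differed in spread. The spread of CPM within EVstiff, as the SD in percent of the mean, was 2.86% for miR-21-5p and 3.50% for miR-205-5p, close to the 2.23% and 3.20% that counting alone gives. It was 37.8% for miR-203a-3p and 43.3% for miR-31-5p, where counting gives 12.7% and 29.3%. In EVsoft the spread was 9.13% for miR-21-5p and 11.9% for miR-205-5p, wider than the 1.44% and 2.63% from counting, and below the median of 13.5% over all tested miRNAs. There it was 26.7% for miR-31-5p, where counting gives 16.0%, and 73.6% for miR-203a-3p, where counting gives 21.3%, although miR-203a-3p had more reads than miR-31-5p on average.

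A ratio of 2 miRNAs within a library does not depend on how libraries are scaled, so the members were also compared with each other in all 6 pairs. How often the ratio of any 2 tested miRNAs lies apart between the groups was not computed. In CPM, single miRNAs lay apart for 47.6% of those tested, so a ratio that lies apart is not by itself a trait of the members. The clearest pair was miR-21-5p to miR-205-5p, the most abundant members. Each EVsoft library had 3.03, 3.53 and 3.52 reads of miR-21-5p for each read of miR-205-5p, replicates 1 to 3, and each EVstiff library had 2.11, 1.92 and 2.17. The groups lay apart with little spread within either, and miR-21-5p made up 76.0% ± 1.76 (SD, n = 3) of the reads of the 4 miRNAs in EVsoft and 65.6% ± 1.82 (SD, n = 3) in EVstiff. The mean log2 ratio changed from 1.75 ± 0.13 (SD, n = 3) to 1.05 ± 0.09 (SD, n = 3), lower by 0.70 or 1.62-fold (exact two-sided permutation p = 0.1, or 0.15 with adjustment for 6 pairs). Leaving out any one library kept the difference between -0.77 and -0.65.

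The ratios that involve miR-203a-3p were wider. There were 73.5, 615.5 and 76.2 reads of miR-21-5p for each of miR-203a-3p in EVsoft and 39.9, 20.5 and 39.2 in EVstiff, a difference of -2.25 in the mean log2 ratio that became -1.24 without EVsoft replicate 2. For miR-205-5p to miR-203a-3p there were 24.2, 174 and 21.6 in EVsoft and 18.9, 10.7 and 18.1 in EVstiff, a difference of -1.55, or -0.57 without EVsoft replicate 2. Neither pair overlapped between the groups (exact two-sided permutation p = 0.1, adjusted 0.15), and the size of both differences depended on EVsoft replicate 2. The ratio of miR-203a-3p to miR-31-5p also did not overlap, at 1.56, 0.15 and 2.53 in EVsoft and 2.70, 11.6 and 4.64 in EVstiff, higher by 2.65 on the log2 scale (exact p = 0.1, adjusted 0.15). Without EVsoft replicate 2 this difference was 1.40. The 2 remaining pairs overlapped. The ratio of miR-205-5p to miR-31-5p was higher by 1.10 (exact p = 0.2, adjusted 0.24) and that of miR-21-5p to miR-31-5p by 0.40 (exact p = 0.5, adjusted 0.5). The latter difference was 0.14 without EVstiff replicate 2, 0.17 without EVsoft replicate 2, 0.70 without EVsoft replicate 3 and 0.71 without EVstiff replicate 1.

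**Figure D3:**
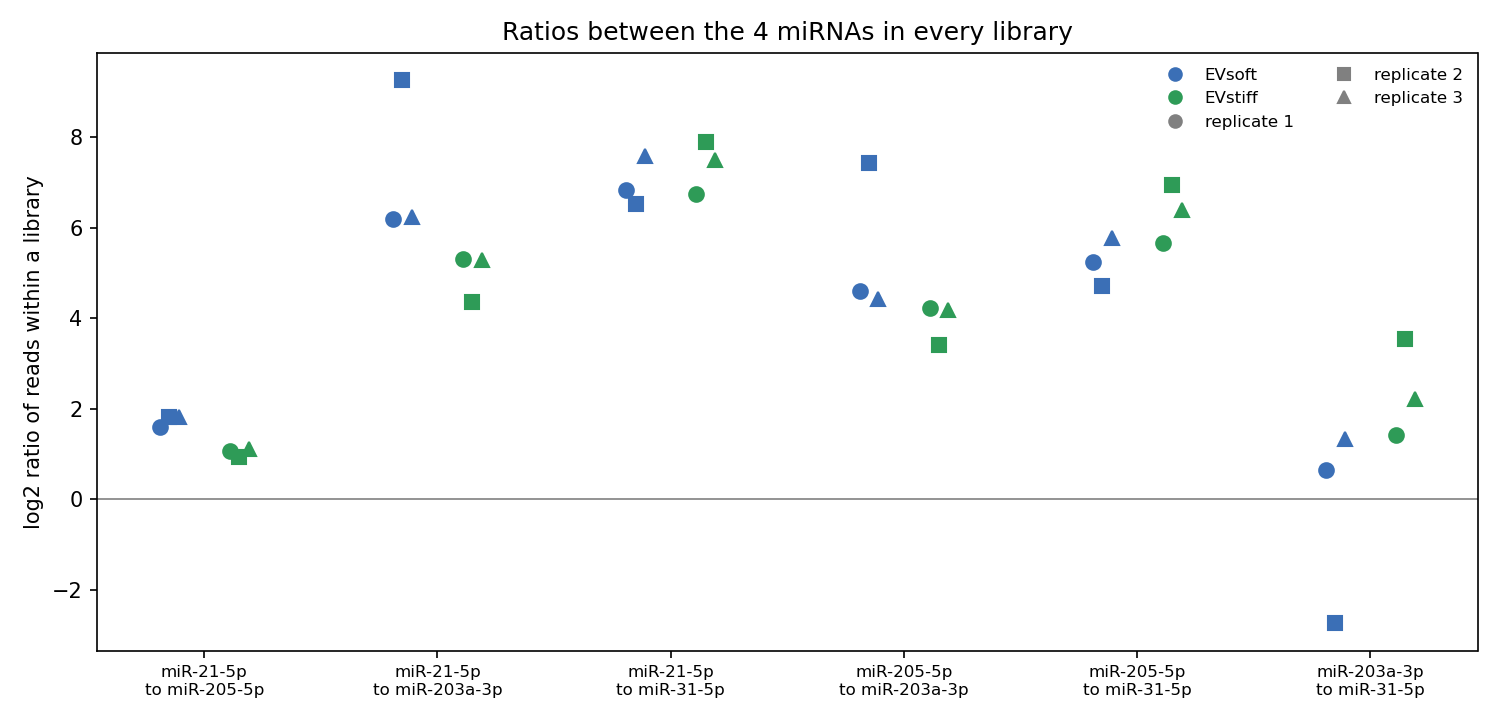
log2 ratio of reads within a library for the 6 pairs of miRNAs, with one point per library (EVsoft blue, EVstiff green). The ratios of miR-21-5p to miR-205-5p form tight groups that do not overlap, and EVsoft replicate 2 lies far from its group in each pair with miR-203a-3p.

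Mature miRNAs are cut from one arm of a hairpin, and the partner strand is usually degraded. Few reads of the partner strands were found at this depth. miR-21-3p had 2, 8 and 1 reads in EVsoft and 6, 0 and 2 in EVstiff. miR-31-3p had 1 read in EVsoft replicate 3, 1 in EVstiff replicate 2 and 0 in the other libraries. Neither miR-205-3p nor miR-203a-5p had a row. None of these passed the filter on low counts, and no fold change is given. For miR-31 and miR-203a, whose main arms had few reads themselves, the depth does not show how much rarer the partner strand was.

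Over the 6 libraries, the miRNA whose TMM log2 CPM followed miR-205-5p most closely was miR-203a-3p, and the reverse held too, among the 104 other tested miRNAs. Their Pearson correlation was 0.980 over 6 libraries, 0.973 after each group's mean was removed, and 0.878 over 5 libraries without EVsoft replicate 2, in which both were at their lowest. Next to miR-205-5p came miR-30a-3p (0.929, and 0.902 without EVsoft replicate 2) and miR-320b (0.914, and 0.677). Without that library miR-30a-3p was thus closer to miR-205-5p than miR-203a-3p was. Next to miR-203a-3p came miR-320b (0.881, and 0.514 without EVsoft replicate 2) and miR-574-5p (0.879, and 0.813). The nearest to miR-21-5p were let-7i-5p (0.966), miR-146a-5p (0.961) and miR-200c-3p (0.947), and with the group means removed these were 0.591, 0.863 and 0.244. Much of the likeness of let-7i-5p and miR-200c-3p to miR-21-5p thus lay in the difference between the groups. The nearest to miR-31-5p were miR-26b-5p (0.915), miR-429 (0.862) and miR-7-5p (0.850), or 0.900, 0.696 and 0.648 with the group means removed. These are descriptions over 6 libraries that share their depth and composition and fall into 2 groups, chosen as the highest of many, and carry no test.

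Of 18 further miRNAs of keratinocytes and squamous epithelium, 16 had a row and 9 were tested. At an adjusted p of at most 0.05 by edgeR, 0 rose and 4 fell, where 12.4% of all tested miRNAs rose and 11.4% fell. The median log2 fold change was -0.37, against -0.04 over all tested miRNAs. Those that fell were miR-200c-3p (-1.10), miR-200a-3p (-1.12) and miR-200b-3p (-0.73), of the family that represses ZEB1 and ZEB2 as miR-205 does, and miR-27b-3p (-0.37). They were lower under every scaling, but miR-27b-3p passed in only 9 of 15 alternatives. Also of the miR-200 family, miR-429 was lower without passing (-0.76, adjusted p = 0.0745 by edgeR). The remaining tested miRNAs of the list went both ways and did not pass: miR-24-3p (0.26), miR-99a-5p (0.32), miR-100-5p (0.55) and miR-224-5p (-0.03). The fall in this list was thus mostly that of the miR-200 family. The list was chosen with earlier results of these data known and was not tested as a set. Its counts and median therefore do not show a fall of squamous miRNAs in general. With DESeq2 the count was 1 higher, miR-24-3p (0.31, adjusted p = 0.0246), and 3 lower, without miR-27b-3p (adjusted p = 0.0714). Of the defining squamous miRNAs outside the members, miR-944, which lies in an intron of TP63, had between 1 and 4 reads per library and miR-184 between 1 and 7.

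Of 24 miRNAs described as high in oral or head and neck carcinoma, 13 were tested, with a median of -0.18. At an adjusted p of at most 0.05 by edgeR, 2 rose and 2 fell, where 12.4% of all tested miRNAs rose and 11.4% fell. The same threshold and shares apply to the list that follows. Counts as small as these do not set either list apart from all tested miRNAs. The inflammation-induced miR-146a-5p (-1.36) and miR-155-5p (-0.86) fell. Those that rose were miR-455-5p (1.20) and miR-1246 (0.53), the latter at -0.31 when the same library size was assumed for all. Of 22 described as low in these tumours, 9 were tested, of which 2 fell, miR-125a-5p (-1.35) and miR-200c-3p, and 1 rose, let-7c-5p (0.68, and -0.11 with the same library size). The median was 0.01. Some miRNAs stand in more than one list, miR-200c-3p among them. The study singled out miR-1246, miR-455-5p, miR-200c-3p, miR-125a-5p and miR-146a-5p on these libraries, as well as miR-122-5p, miR-30a-3p and miR-574-5p, so their directions are not independent evidence.

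**Figure D4:**
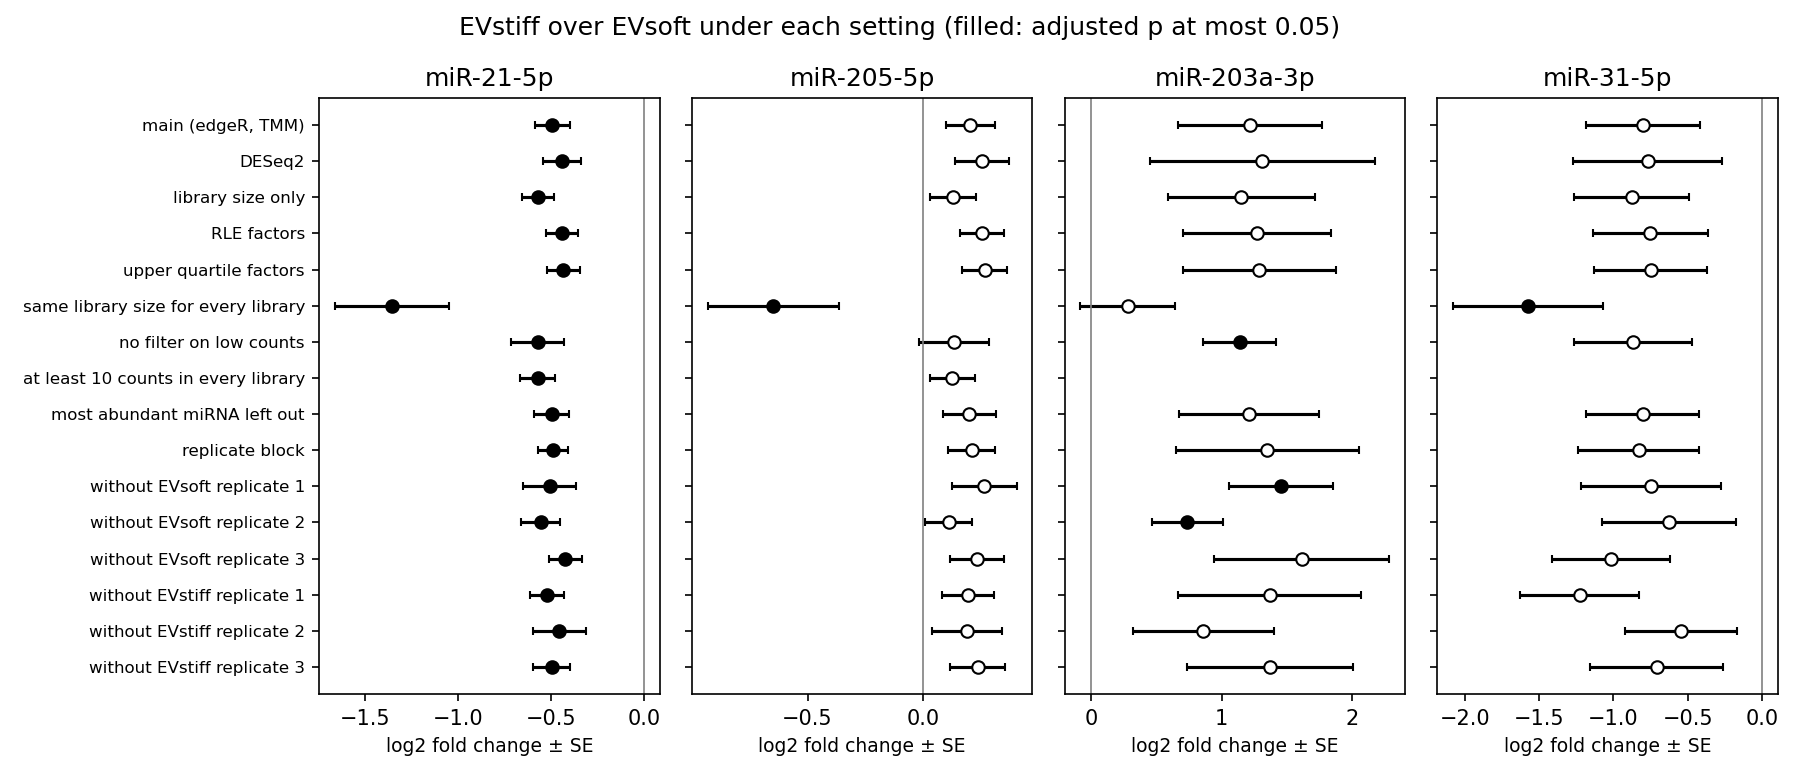
log2 fold change of EVstiff over EVsoft (points) with its standard error (bars) for each miRNA under every setting that could be fitted; filled points have an adjusted p of at most 0.05. All points of miR-21-5p are filled and below 0, and those of miR-205-5p are above 0 except where all libraries were given the same size.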

How the data were processed

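Small RNA was sequenced from EVs of 3 EVsoft and 3 EVstiff samples, grouped by their labels. The authors deposited raw read counts per miRNA, with RefSeq features and quality control by exceRpt. The submitters' processing notes name hg38. The aligner and the treatment of duplicate reads and of reads that match several miRNAs are not given in the sources used here, and no molecular identifiers are named. By the study's methods, replicates are separate isolations from repeated cultures.

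From these counts, edgeR 4.0.16 in R 4.3.3 (filterByExpr, TMM, quasi-likelihood test, Benjamini-Hochberg over 105 miRNAs) gave fold changes. A miRNA was called where the adjusted p was at most 0.05 and the log2 fold change exceeded 0.58 in size. The tool behind the study's q-values for miRNAs is not given in the sources used here. Log2 CPM used a prior count of 2. Shares and ratios used an exact permutation test (Python 3.11.15). Loci came from GENCODE 44, and RefSeq held sequences for 418 of 475 miRNA names. Each pair of libraries differed by more than sampling noise (chi-square at least 3.40 per degree of freedom).

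The members, lists and tests were chosen with earlier results of these data known. Named miRNAs were the members, their other arms, those sharing a seed, the 3 most correlated with each, the neighbours in level, and list members with an adjusted p of at most 0.05. Further markers and list members were named after their values were seen. Alternatives were DESeq2 1.42.0, other scalings and filters, a replicate block, and fits without the most abundant miRNA or without single libraries. The procedure was tested on simulated data.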

Additional observations from a re-analysis of the deposited data

How the results depend on the processing

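Of the 58 alternative fits of the 4 miRNAs, 53 kept the direction and the side of the adjusted p threshold. miR-21-5p kept both in all 15 of its fits, with a log2 fold change from -1.35 to -0.42 and an adjusted p up to 0.0472, the latter without EVstiff replicate 2. With all libraries given the same size, miR-205-5p reversed to -0.65, miR-31-5p passed at -1.58, and 57 miRNAs were called in place of 19, all lower. By construction this scaling compares raw reads, which were fewer in EVstiff. Without a filter on low counts miR-203a-3p passed at 1.14 (adjusted p = 0.00217). The cause was not tested. Leaving out one library gave 13 to 19 calls and log2 fold changes from 0.74 to 1.61 for miR-203a-3p, -0.55 to -0.42 for miR-21-5p, 0.11 to 0.26 for miR-205-5p and -1.23 to -0.55 for miR-31-5p. With at least 10 counts in every library neither miR-203a-3p nor miR-31-5p was tested. The calls split into 11 higher and 8 lower, and into 8 and 11 with library size only. All 36 alternatives for shares and all 48 for ratios kept their direction. Those with a replicate block could not do otherwise, since blocking leaves a difference of means unchanged.

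Replicate numbers showed no clear pairing of the libraries: deviations from the group means correlated at -0.13, 0.13 and -0.03 for replicates 1 to 3. Of the libraries that share a number, only those numbered 2 correlated best with each other. EVsoft replicate 1 and EVstiff replicate 3 (0.20) were also each other's closest, as were EVsoft replicate 3 and EVstiff replicate 1 (0.16). With 3 libraries in each group, these correlations cannot exclude a shared culture. With a replicate block 16 miRNAs were called, and the log2 fold changes were -0.49 for miR-21-5p, 0.21 for miR-205-5p, 1.35 for miR-203a-3p and -0.83 for miR-31-5p, with no change of side. Blocked sign-flip tests of shares and ratios cannot go below an exact p of 0.25. miR-203a-3p had between 6 and 96 reads a library and miR-31-5p between 8 and 40, and the measured spread of each was wider than counting error in both groups. So was that of miR-21-5p and miR-205-5p, though in EVstiff it was close to counting error. With 3 libraries in each group these are descriptions, and the excess was not tested.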
